A study of Coilia nasus with 12 samples.

Results

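Aminoacyl-tRNA synthetases, the enzymes that charge each tRNA with its amino acid, were followed in the stomach of Coilia nasus, an anadromous anchovy. A unigene, a transcript cluster assembled without a genome, was taken as a member when its annotation contained "tRNA ligase" or "tRNA synthetase", which gave 49 of 63567 unigenes. Of these, 16 had "mitochondrial" in the annotation and are called mitochondrial, and the other 33 are called cytosolic. Each of 12 fish gave 1 stomach RNA library, and the 2 groups of 6, food intake and no food intake, are those of the labels. Stomach is named as the tissue and gastric mucosa as the source of the RNA, and the labels' protocols describe the no food intake fish as controls. The labels used here give no age, strain, meal or time since feeding, so the groups differ by feeding status as labelled and by whatever else differed between the fish. The study asked how the stomach transcriptome differs between feeding and non-feeding fish.

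Synthetases work in 2 sets in animal cells. One set acts in the cytosol, where several of its members sit together with the scaffold proteins AIMP1, AIMP2 and EEF1E1 in the multisynthetase complex and others act free. The other set is made from nuclear genes, imported into mitochondria and serves translation of the proteins that mitochondrial DNA encodes. In mammals many cytosolic synthetase genes, but few mitochondrial ones, are targets of ATF4, the transcription factor of the amino acid response.

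The synthetases of the cytosol were higher in the mean of the food intake libraries for most members, whereas those of mitochondria were split evenly, and no single synthetase passed the test. Of the 30 cytosolic unigenes tested, 26 had a log2 fold change above 0 with a median of 0.48, and of the 13 mitochondrial ones 6 did, with a median of -0.01. Over all 40142 unigenes tested 46% were above 0 and the median was -0.04. Threonyl-tRNA synthetase (TARS) and the shorter unigene of seryl-tRNA synthetase (Sars) had the largest differences on the log2(TPM + 1) scale, with log2 fold changes of 1.76 and 1.58. The longer and more abundant Sars unigene had 1.29. With a pseudocount of 0.1 in place of 1, TARS and the shorter Sars unigene had 1.93 and 1.94, and mitochondrial Pars2, at 0 TPM in 3 libraries, had 2.56. In the deposited values the library food intake 6 stood apart as the lowest of 12 for most members, and food intake 1 as the highest for most cytosolic ones. The cytosolic median ran from 0.23 without food intake 1 to 0.85 without food intake 6, and the mitochondrial median from -0.10 to 0.20.

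The cytosolic members covered the genetic code, and the mitochondrial ones did not. Setting aside 3 unigenes described below and joining fragments of the same enzyme, 46 unigenes matched 33 synthetases of fish: 21 cytosolic ones, which served all 20 amino acids, and 12 mitochondrial ones. Phenylalanine has a cytosolic enzyme of an alpha subunit (farsa) and a beta subunit (FARSB), threonine was represented by TARS and by the related tarsl2, and glutamate and proline share the bifunctional EPRS. Glycine and lysine had a single enzyme, GARS and Kars, and in vertebrates each of these genes is known to supply both compartments. No mitochondrial unigene was found for alanine, glutamine, histidine, methionine, tryptophan or tyrosine either. For glutamine this is not a gap, since animal mitochondria use EARS2 and an amidotransferase, described below. The unigenes were 204 to 4193 bases long, 9 of them under 350 bases, and 33 of the 49 had Atlantic herring (Clupea harengus) as the best-matching species. EPRS was spread over 6 unigenes, hars over 4, mitochondrial leucyl-tRNA synthetase over 3 including one without a name, QARS over 2 including one without a name, and Sars and yars over 2 each. Reads of one enzyme could be split among such unigenes, and TARS and tarsl2 belong to the same assembly cluster.

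The 3 unigenes set aside met the rule but are not clear synthetases of this fish. PRORSD1 is a protein with a domain associated with prolyl-tRNA synthetase, not a synthetase. A pair of short unigenes, 221 and 238 bases, are annotated as mitochondrial glycyl-tRNA synthetase of a bat and carry the Arabidopsis gene name At1g29880. A further unigene, the threonine one called mitochondrial (Tars), was kept. It is annotated as the mitochondrial enzyme in herring but its Swiss-Prot match is the cytoplasmic one, so its compartment is uncertain. Without the bat-matched pair 6 of 11 mitochondrial unigenes were above 0 with a median of 0.02, and without the threonine unigene as well 6 of 10 with a median of 0.07.

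Of the 49 members, 43 reached 1 TPM (a level scaled by transcript length and by library total) in at least 6 libraries and were tested. The other 6 were 1 fragment of EPRS, 2 of hars and all 3 of mitochondrial leucyl-tRNA synthetase (LARS2 and the unnamed unigene), with means over the 12 libraries of 0.615 to 2.62 TPM. Among the 49, 19 were at 1 TPM or more in every library and 38 were above 0 in every library.

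The 12 column totals were 984119 to 992092 TPM, and 49867 to 57025 unigenes were above 0 per library. TPM does not keep the sequencing depth, so the precision of a value is known from the spread between fish alone. All 6 gastric marker genes had unigenes, among them the pepsinogen genes PGA and PGC and the proton pump gene ATP4A, and the summed gastric markers took 59228 to 384451 TPM. A set of 7 unigenes took 64.2% of all TPM in food intake 6, against 4.34% to 26.9% in the other 11 libraries. They are called rRNA-like, but were picked by level and by correlation with a unigene named ART2. Their sequence was not read. Because TPM is a share, that unequal load lowers every other unigene of that library, and values rescaled without the rRNA-like unigenes are given beside the deposited ones. Unigenes that match chicken mitochondrial genes, 9 in number, were above 0 in 7 libraries and at 0 in the other 5. The 7 were food intake 1, food intake 5, food intake 6 and the no food intake libraries 1, 2, 4 and 6. The labels name no batch, and results are also given within the 7 and within the 5. In bulk tissue fewer cells of a type and less RNA per cell cannot be told apart.

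The summed level of the cytosolic synthetases was higher in most of the food intake fish. In food intake 1 to 6 it was 710, 371, 383, 243, 321 and 73.3 TPM, and in no food intake 1 to 6 it was 180, 206, 175, 215, 223 and 253 TPM. The 4 highest food intake libraries stood above every no food intake library, food intake 4 lay inside their range and food intake 6 below it. The group means were 350 ± 210 and 209 ± 28.8 TPM (SD, n = 6 each), so the food intake fish spread far more among themselves. With the rRNA-like unigenes removed and the rest rescaled, food intake 6 came to 207 TPM, inside the no food intake range of 194 to 307 TPM, and food intake 1 to 861 TPM.

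The mitochondrial sum did not separate the groups. It was 50.6, 37.9, 46.2, 37.3, 38.1 and 16.1 TPM in food intake 1 to 6 and 26.8, 34.3, 37.8, 65.2, 36.0 and 41.7 TPM in no food intake 1 to 6. The sum holds Tars, whose compartment is uncertain, and the bat-matched pair. Neither it nor the ratio below was repeated without them. Of the 65.2 TPM in no food intake 4, Tars made up 20.3 TPM and RARS2 13.4 TPM. The ratio of the cytosolic to the mitochondrial sum is not touched by the share of the rRNA-like unigenes. It was 14, 9.78, 8.29, 6.52, 8.44 and 4.57 with food intake. Without food intake it was 6.72, 6.0, 4.65, 3.29, 6.20 and 6.07. The 4 highest food intake libraries had a higher ratio than any no food intake library, and food intake 4 and food intake 6 lay inside their range. Within the 7 libraries with chicken-matched unigenes the ratio was 4.57 to 14 in 3 food intake libraries and 3.29 to 6.72 in 4 no food intake libraries, and within the other 5 it was 6.52 to 9.78 in 3 against 4.65 and 6.20 in 2, without overlap.

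**Figure D1:**
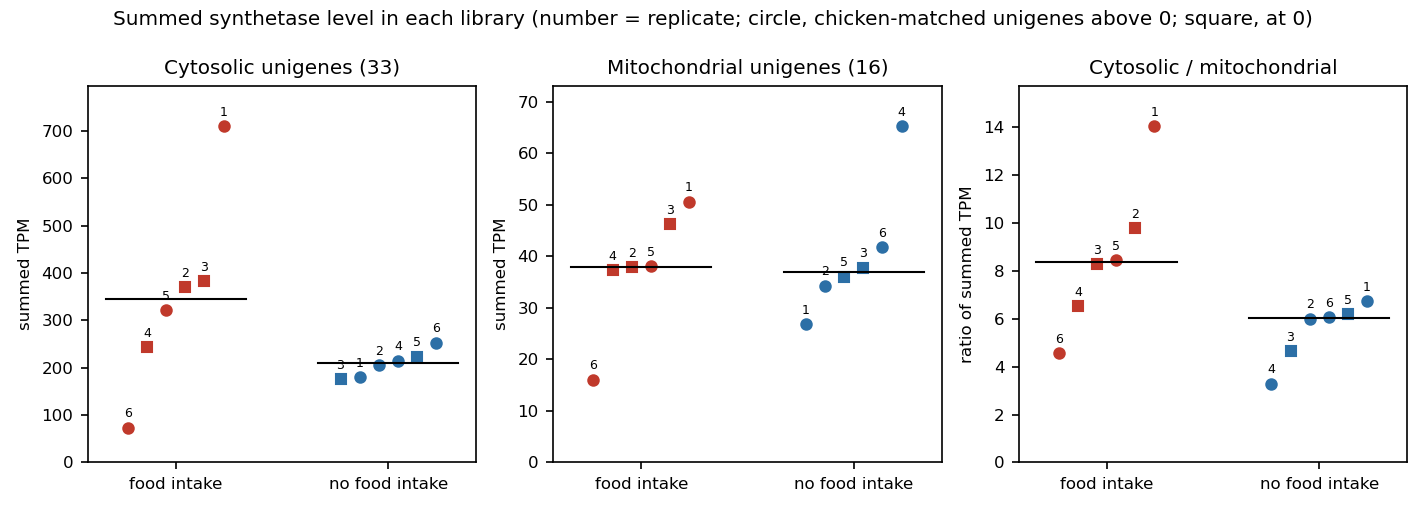
Summed TPM of the 33 cytosolic and the 16 mitochondrial synthetase unigenes and the ratio of the sums, 1 point per library with its replicate number, with a line at the group median. Circles are libraries in which unigenes matching chicken mitochondrial genes were above 0 and squares the others. Food intake 1 (710 TPM) and food intake 6 (73.3 TPM) are the highest and lowest cytosolic sums, and the mitochondrial sums of the groups overlap.

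Across all tested unigenes the comparison of food intake with no food intake called none at an adjusted p under 0.05 (limma on log2(TPM + 1), Benjamini-Hochberg adjustment over 40142 unigenes, 0% called), and the smallest adjusted p was 0.0749. At an unadjusted p under 0.05, 2.48% of all unigenes were higher with food intake and 3.79% lower. Among the 43 synthetase unigenes 0 were called and the smallest adjusted p was 0.774. At the unadjusted threshold 6 of 43 (14%) were higher and 1 was lower. The 6 were TARS, both Sars unigenes, mars, a yars unigene and mitochondrial Pars2, and the 1 was mitochondrial ears2. Pars2 met the filter of 1 TPM in 6 libraries mainly through the food intake group, as described below. Members share libraries and are not independent of each other, so these counts describe the list and carry no test of it.

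No member separated the groups fully: 0 had all 6 food intake libraries above all 6 no food intake libraries (0.0249% of all tested unigenes did) and 0 had them all below (0.142% did). Food intake 1 to 5 all stood above every no food intake library for 1 member, TARS, beside 1.23% of all tested unigenes. At least 5 of the 6 food intake libraries were above the no food intake median for 16 of 30 cytosolic (53.3%) and 4 of 13 mitochondrial members (30.8%), beside 18.4% of all. Food intake 6 was the lowest of the 12 libraries for 22 of 30 cytosolic and 8 of 13 mitochondrial members, which compares with 35.6% of all tested unigenes. These ranks are of the deposited values, in which the share of the rRNA-like unigenes lowers food intake 6, and were not counted after rescaling. Rescaled, food intake 6 was no longer the lowest for some, such as LARS (19.2 TPM), and still the lowest for others, such as FARSB (8.68 TPM) and RARS (2.93 TPM). Food intake 1 was the highest for 22 of 30 cytosolic and 3 of 13 mitochondrial members, beside 16.2% of all.

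**Figure D2:**
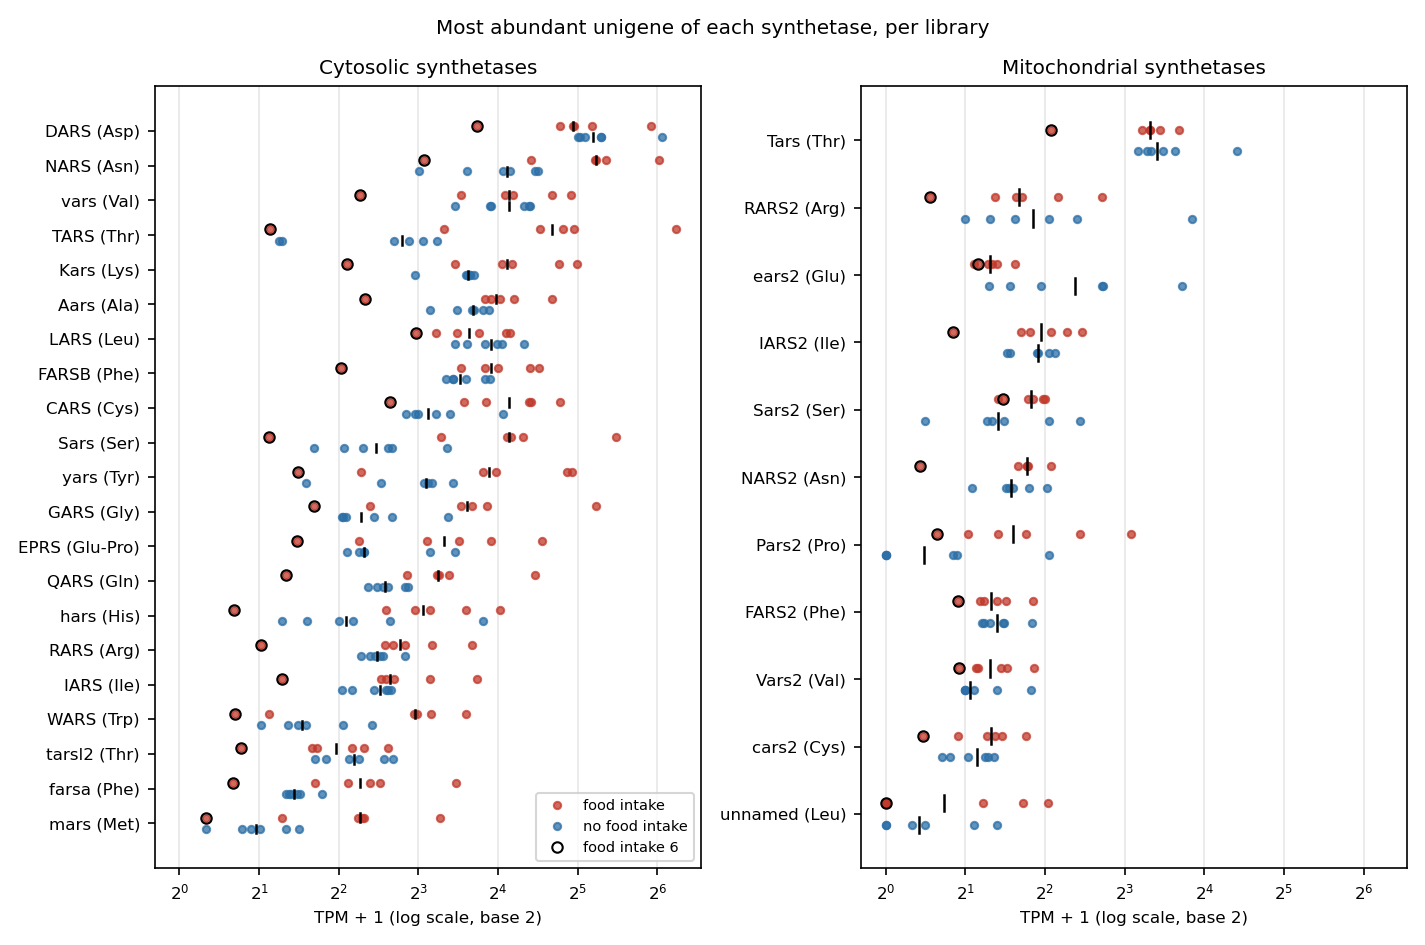
Level in each of the 12 libraries (TPM + 1, log axis of base 2) of the most abundant unigene of each of 21 cytosolic and 11 mitochondrial synthetases, ordered by mean, with a black tick at the group median and food intake 6 ringed. For TARS the 5 other food intake libraries lie at 8.96 to 74.3 TPM, above all no food intake libraries.

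Among the synthetases that act free of the complex, TARS had the largest log2 fold change with a pseudocount of 1. It was at 1.19 TPM at the lowest, 24.6 at the median and 74.3 at the highest with food intake, and at 1.38, 5.91 and 8.44 TPM without. In food intake 1 it was the highest and in food intake 6 the lowest of the 12, and the other 4 food intake libraries were at 8.96 to 30.1 TPM. After rescaling without the rRNA-like unigenes, food intake 6 was at 3.35 TPM, above no food intake 1 (1.49 TPM) and no food intake 3 (2.01 TPM). The deposited values gave TARS a log2 fold change of 1.76 ± 0.65 (SE), with an unadjusted p of 0.0152 and an adjusted p of 0.774. Without food intake 6 it was 2.37 (adjusted p = 0.185) and without food intake 1 it was 1.35. It was 1.5 within the 7 libraries with chicken-matched unigenes and 2.23 within the other 5.

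Seryl-tRNA synthetase charges tRNA for serine and also the tRNA that becomes selenocysteinyl-tRNA. The longer Sars unigene, 2473 bases, was at 1.17, 16.6 and 43.5 TPM (lowest, median, highest) with food intake and at 2.22, 4.54 and 9.22 TPM without. The 4 highest food intake libraries were above every no food intake library and food intake 6 was below all of them. After rescaling, food intake 6 was at 3.30 TPM, above no food intake 3 at 3.07 TPM. The longer unigene had a log2 fold change of 1.29 ± 0.54 (SE; unadjusted p = 0.0282, adjusted p = 0.774). The shorter one, 589 bases of the same cluster, was at 0.80, 9.43 and 37.6 TPM against 0.43, 1.93 and 5.68 TPM, with a log2 fold change of 1.58 ± 0.58 (unadjusted p = 0.0144). Its food intake libraries also overlapped the others at the low end.

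Asparaginyl-tRNA synthetase (NARS) was the second most abundant member. It was at 7.40, 36.4 and 64.1 TPM with food intake and at 7.03, 16.2 and 21.6 TPM without. Of the 6 food intake libraries 4 were above every no food intake library. The log2 fold change was 0.92 ± 0.44 (SE; unadjusted p = 0.0520, adjusted p = 0.800), and 1.28 without food intake 6.

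Glycyl-tRNA synthetase (GARS) was at 2.21, 11.2 and 36.4 TPM with food intake and at 3.13, 3.85 and 9.37 TPM without. The highest value of each group, in food intake 1 and no food intake 5, stood well above the rest of that group. GARS had a log2 fold change of 0.95 ± 0.47 (SE; unadjusted p = 0.0618), 1.29 without food intake 6 and 0.58 without food intake 1. Tyrosyl-tRNA synthetase, yars, had unigenes of 1146 and 1009 bases with log2 fold changes of 1.06 (unadjusted p = 0.0293) and 0.73 (0.185). Both had 4 food intake libraries above all of the no food intake libraries.

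Tryptophanyl-tRNA synthetase (WARS), which is known in mammals as an interferon-induced gene, was at 0.62, 6.79 and 11.1 TPM with food intake and at 1.04, 1.91 and 4.36 TPM without. Its log2 fold change was 0.76 (unadjusted p = 0.117). Those of cysteinyl-tRNA synthetase (CARS) and of the alpha subunit of phenylalanyl-tRNA synthetase (farsa) were 0.69 and 0.66, with unadjusted p of 0.0744 and 0.0870. The beta subunit, FARSB, makes one enzyme together with farsa and had a log2 fold change of 0.13, and the mean level was 12.6 TPM for FARSB and 3.01 TPM for farsa. Alanyl-tRNA synthetase (Aars) was at 0.22.

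Histidyl-tRNA synthetase was represented by 2 tested hars unigenes that went different ways within the library sets. The one of 901 bases had a log2 fold change of 1.07 (unadjusted p = 0.0933), which was 1.92 within the 7 libraries with chicken-matched unigenes and -0.02 within the other 5. The one of 1943 bases had 0.58, which was -0.22 and 1.78 within the same sets. The highest library was food intake 1 for both.

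A pair of the synthetases counted as free had a log2 fold change below 0. Valyl-tRNA synthetase (vars), the third most abundant member, was at 3.82, 16.6 and 29.2 TPM with food intake and at 10.01, 16.5 and 20.1 TPM without. The medians were almost equal and the means were 16.9 and 16.2 TPM, higher with food intake, while on the log scale the fold change was -0.12, against 0.22 without food intake 6 and 0.01 after rescaling. The threonyl-tRNA synthetase relative tarsl2 was at 0.71, 2.90 and 5.12 TPM against 2.25, 3.57 and 5.39 TPM, a log2 fold change of -0.32. Thus TARS and tarsl2, neighbours in the assembly, had log2 fold changes of opposite sign, and a test of that difference was not run.

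The 8 synthetases counted in the multisynthetase complex had a median log2 fold change of 0.32, with 6 of 8 above 0, and the 13 counted as free a median of 0.69, with 11 of 13 above 0. This split was made by amino acid alone, so tarsl2 was counted as free along with TARS, and membership was not tested in this fish. Methionyl-tRNA synthetase (mars), which also charges the initiator tRNA, was at 0.26, 3.81 and 8.68 TPM with food intake and at 0.26, 0.94 and 1.84 TPM without. The 4 highest food intake libraries were above every no food intake library. The log2 fold change was 0.98 ± 0.41 (SE; unadjusted p = 0.0271, adjusted p = 0.774), 0.93 within the 7 libraries with chicken-matched unigenes and 1.10 within the other 5. The gene mars was also the least abundant of the 21 cytosolic synthetases, with a mean of 2.35 TPM.

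The most abundant of all members was aspartyl-tRNA synthetase (DARS), also of the complex. It was at 12.3, 29.8 and 59.5 TPM with food intake and at 31.0, 35.7 and 65.6 TPM without. All but 1 of the food intake libraries were below the no food intake median. DARS had a log2 fold change of -0.38 ± 0.36 (SE; unadjusted p = 0.307), -0.23 after rescaling, -0.81 within the 7 libraries with chicken-matched unigenes and 0.12 within the other 5. Leucyl-tRNA synthetase (LARS), an enzyme that in mammals also signals leucine to mTORC1, was at 6.82, 11.4 and 16.8 TPM against 10.02, 14 and 19.1 TPM, with a log2 fold change of -0.26. LARS had the narrowest range of the cytosolic synthetases, its highest library being 2.80 times its lowest.

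The other complex members lay between these. Lysyl-tRNA synthetase (Kars) was at 3.30, 16.3 and 30.7 TPM with food intake and at 6.76, 11.4 and 11.99 TPM without, and 4 of the 6 food intake libraries were above every no food intake library. Its log2 fold change was 0.40, and 0.76 without food intake 6. The most abundant EPRS unigene had 0.54, glutaminyl-tRNA synthetase (QARS) 0.47, isoleucyl-tRNA synthetase (IARS) 0.24 and arginyl-tRNA synthetase (RARS) 0.16. The 4 other tested EPRS unigenes had 0.31 to 0.50. None of these had an unadjusted p under 0.05, and without food intake 6 EPRS (0.87), QARS (0.82) and Kars did.

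**Figure D3:**
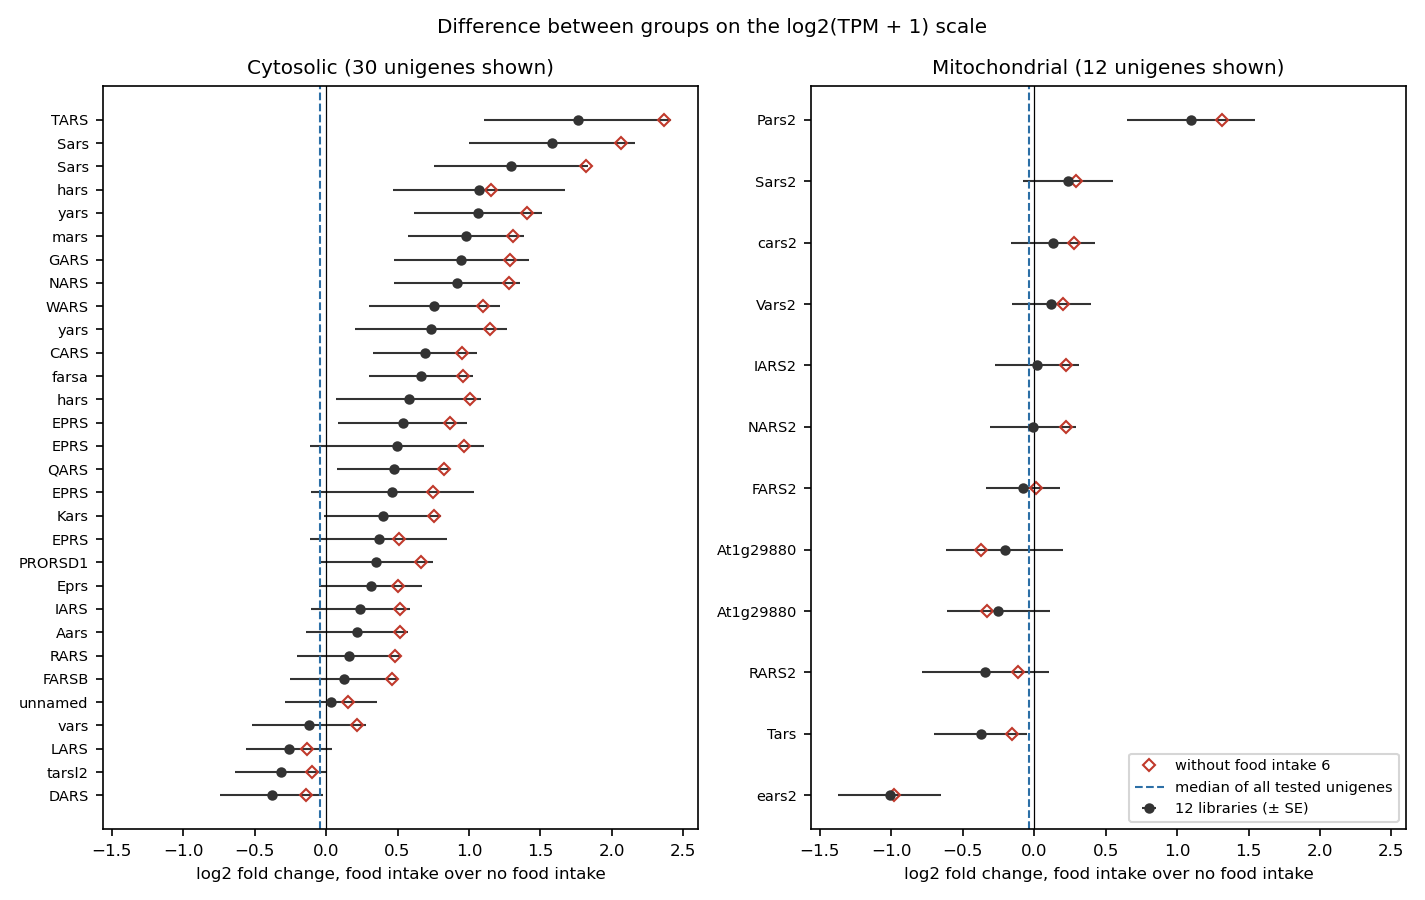
Log2 fold change between the groups (above 0, higher with food intake; scale of log2(TPM + 1)) for 30 cytosolic and 12 mitochondrial unigenes, with bars of ± 1 SE, red diamonds for the value without food intake 6 and a dashed line at the median of all tested unigenes (-0.04). The cytosolic values run from -0.38 (DARS) to 1.76 (TARS), and the mitochondrial ones from -1.01 (ears2) to 1.10 (Pars2).

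The makeup of the cytosolic pool had different group means as well. Threonyl-tRNA synthetase TARS took 6.36 ± 3.35% of the cytosolic TPM with food intake and 2.33 ± 1.31% without, and the longer and shorter Sars unigenes together took 7.44 ± 3.10% and 3.45 ± 1.63% (SD, n = 6 each). Asparaginyl-tRNA synthetase took 9.84 ± 1.13% and 7.30 ± 2.06%. Such shares do not depend on the load of rRNA-like unigenes. Food intake 6, at 1.62% for TARS and 2.69% for Sars, lay inside the no food intake range for both.

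The share of DARS went the other way, at 11.7 ± 7.41% with food intake and 19.7 ± 8.68% without, with no food intake 1 the highest at 36.5% and food intake 1 the lowest at 4.97%. Leucyl-tRNA synthetase LARS took 2.27% to 9.31% with food intake and 5.04% to 8.88% without. The 4 food intake libraries with the lowest LARS share were below every no food intake library, and food intake 6 had the highest of all 12. These shares were compared as a description and no test was made of them.

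**Figure D4:**
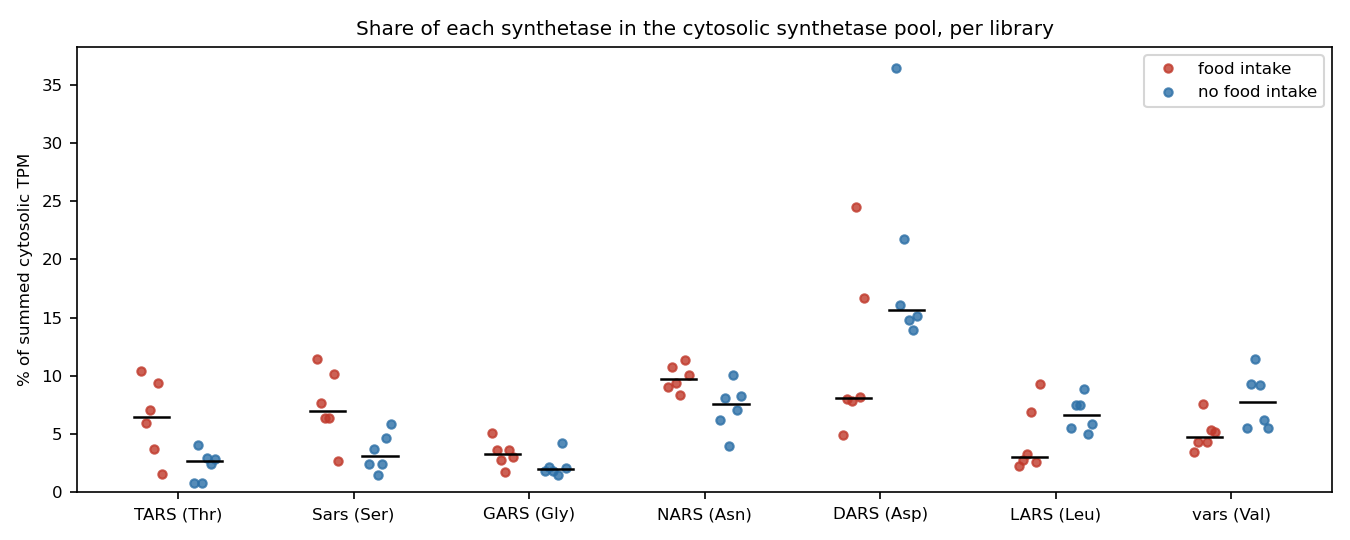
Percentage of the summed cytosolic synthetase TPM taken by 7 synthetases in each library, with a black line at the group median. TARS runs from 1.62% to 10.5% with food intake and from 0.77% to 4.10% without, and DARS is highest in no food intake 1, at 36.5%.

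The mitochondrial synthetases were less abundant, and of the 13 tested only ears2 (-1.01) and Pars2 (1.10) had a log2 fold change beyond 0.5 in either direction with a pseudocount of 1, a scale that compresses differences at levels near 1 TPM. The most abundant unigene of each had a mean of 0.852 to 9.90 TPM (median 2.20 TPM), against 2.35 to 35.9 TPM (median 10.9 TPM) for the cytosolic ones. For the 9 amino acids whose separate enzymes of both compartments were compared, the cytosolic level was the higher one in 9 of 9. The cytosolic log2 fold change was the larger in 7 of the 8 of these that could be tested on both sides, and the exception was valine (-0.12 for vars, 0.12 for Vars2). Both counts include threonine (1.76 for TARS, -0.37 for Tars), where the compartment of Tars is uncertain. For serine the values were 1.29 for Sars and 0.24 for Sars2, for asparagine 0.92 for NARS and -0.01 for NARS2, and for cysteine 0.69 for CARS and 0.13 for cars2.

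Mitochondrial glutamyl-tRNA synthetase (ears2) had the smallest unadjusted p of all members. It was at 1.16, 1.48 and 2.07 TPM with food intake and at 1.45, 4.21 and 12.2 TPM without. All 6 food intake libraries were below the no food intake median, and the ranges overlapped because no food intake 1 and no food intake 5, at 1.45 and 1.94 TPM, were below food intake 1. The log2 fold change was -1.01 ± 0.36 (SE; unadjusted p = 0.0120, adjusted p = 0.774). It was -0.98 without food intake 6, -0.94 after rescaling, -0.82 within the 7 libraries with chicken-matched unigenes and -1.36 within the other 5. In animal mitochondria EARS2 also charges the glutamine tRNA with glutamate, which the GatCAB amidotransferase then converts.

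Mitochondrial prolyl-tRNA synthetase (Pars2), represented by a unigene of 227 bases, was at 0.57, 2.02 and 7.47 TPM with food intake and at 0.00, 0.395 and 3.16 TPM without. All 6 food intake libraries were above the no food intake median, but no food intake 2 was above 4 of them. It reached 1 TPM in food intake 1 to 5 but in no food intake 2 alone of the other group. Pars2 thus passed the filter of 6 libraries through the group where it was higher, and its p is not evidence of a difference. Pars2 had a log2 fold change of 1.10 ± 0.45 (SE; unadjusted p = 0.0246, adjusted p = 0.774). It was 2.56 with a pseudocount of 0.1, with no food intake 1, no food intake 3 and no food intake 4 listed at 0, and 0.64 within the 7 libraries with chicken-matched unigenes. The threonine unigene of uncertain compartment, Tars, was at 3.22, 8.97 and 11.9 TPM against 7.99, 9.62 and 20.3 TPM, with a log2 fold change of -0.37.

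The other mitochondrial enzymes of fish that are described here lay close to 0. Seryl- (Sars2, 0.24), cysteinyl- (cars2, 0.13), valyl- (Vars2, 0.12), isoleucyl- (IARS2, 0.02), asparaginyl- (NARS2, -0.01), phenylalanyl- (FARS2, -0.08) and arginyl-tRNA synthetase (RARS2, -0.34) had no unadjusted p under 0.05. RARS2 rested on 1 library, no food intake 4, at 13.4 TPM, with all other libraries at 0.47 to 5.57 TPM. The 2 bat-matched glycine unigenes had -0.21 and -0.25.

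The members' counts were also taken without the libraries that stood apart, after rescaling and within the library sets. Without food intake 6, 16 of 30 cytosolic and 1 of 13 mitochondrial members were higher at the unadjusted threshold, beside 8.36% of all tested unigenes, and 55.5% of all were above 0. After rescaling without the rRNA-like unigenes it was 9 of 30 and 1 of 13, beside 5.68% of all, with 27 of 30 cytosolic and 8 of 13 mitochondrial log2 fold changes above 0 (medians of 0.58 and 0.02) and 55.7% of all. Rescaling moved the median of all tested unigenes from -0.04 to 0.06, and those at the unadjusted threshold from 997 higher and 1521 lower to 2279 higher and 1014 lower. Without food intake 1 the unadjusted count was 2 cytosolic and 1 mitochondrial, beside 1.67% of all, and 43.2% of all were above 0. Within the 7 libraries with chicken-matched unigenes 21 of 30 cytosolic and 3 of 13 mitochondrial members were above 0, with medians of 0.54 and -0.08, beside 36.7% of all tested unigenes, and 2 cytosolic ones were higher at the unadjusted threshold, beside 1.47% of all. Within the other 5 it was 25 of 30 and 9 of 13, with medians of 0.53 and 0.19, beside 62.7% of all, and 4 cytosolic ones and 1 mitochondrial one were higher at the unadjusted threshold, beside 4.88%.

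Markers of some cell types also had higher means with food intake. Of the 26 tested gastric marker unigenes 22 had a log2 fold change above 0 (median 0.53), beside 46% of all tested unigenes. At an unadjusted p under 0.05, 1 of the 26 was higher, beside 2.48% of all. The gastric sum was 109964 to 384451 TPM with food intake and 59228 to 371201 TPM without. Within the 7 libraries with chicken-matched unigenes 10 of 26 were above 0 with a median of -0.26, beside 36.7% of all tested unigenes. Within the other 5 it was 25 of 26 with a median of 1.64, beside 62.7% of all. The lowest gastric sum, 59228 TPM, was that of no food intake 3, which is in the set of 5. With that library alone left out of the 12, 15 of 26 gastric unigenes were above 0 with a median of 0.29. The share of all unigenes is not given for that setting.

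Markers of pancreatic-type acinar cells, which secrete digestive enzymes and make much protein, were above 0 for 4 of 4 tested unigenes (median 0.98), and their sum was 11.8 to 249 TPM with food intake, highest in food intake 6, and 5.48 to 67.1 TPM without. Of that list AMY2A and CELA1 had no fish unigene. Smooth muscle markers were above 0 for 6 of 16 (median -0.04; sums of 2813 to 6644 and 1481 to 26384 TPM, with ACTG2 unmatched), blood markers for 3 of 5 (sums of 83.4 to 624 and 79.6 to 744 TPM) and leukocyte markers for 1 of 3 (sums of 10.7 to 26.8 and 10.3 to 42.4 TPM, with CD74, CORO1A and IGHM unmatched). Of all tested unigenes 46% were above 0 with the 12 libraries, 36.7% within the set of 7 and 62.7% within the set of 5. The pooled smooth muscle and blood counts hid opposite directions in the library sets. Smooth muscle markers were above 0 for 15 of 16 (median 0.67) within the 7 libraries with chicken-matched unigenes and for 2 of 16 (median -1.55) within the other 5, and blood markers for 5 of 5 (median 1.27) and 1 of 5 (median -1.42). No food intake 3, which is in the set of 5, had the highest sum of all 12 for both lists, 26384 and 744 TPM. With that library alone left out of the 12, smooth muscle markers were above 0 for 14 of 16 (median 0.44) and blood markers for 5 of 5 (median 0.51). No matched marker gene was at 0 in all libraries. The part of these markers in the synthetase values was not tested.

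Genes that work beside the synthetases were read from lists of their own. The amino acid response list, which holds the sensor kinase EIF2AK4 (GCN2), ATF4 and known ATF4 targets of mammals, had 26 of 36 tested unigenes above 0 with a median of 0.36. Of these, 0 were called, 5 (13.9%) were higher at the unadjusted threshold and 0 lower, beside 2.48% and 3.79% of all. That count of 5 moved with single libraries: it was 14 without food intake 6 (beside 8.36% of all) and 2 without food intake 1 (beside 1.67%). It was also 2 when food intake 2 or food intake 5 was left out, and 3 when no food intake 2 or no food intake 3 was, where the share of all is not given. The count was 11 after rescaling (beside 5.68% of all). It was 0 within the 7 libraries with chicken-matched unigenes (beside 1.47%), against 3 within the other 5 (beside 4.88%). The 4 with the smallest p were CHAC1, MTHFD2, PHGDH and SLC1A5.

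CHAC1, an enzyme that degrades glutathione, was at 3.54, 67.2 and 145 TPM (lowest, median, highest) with food intake and at 3.10, 7.91 and 36.6 TPM without. Its log2 fold change was 2.38 ± 0.72 (SE; unadjusted p = 0.004, adjusted p = 0.768), and the groups overlapped. MTHFD2, a mitochondrial enzyme of folate metabolism, had 1.15 (unadjusted p = 0.010). It was at 0.12, 2.34 and 4.80 TPM with food intake and at 0.08, 0.295 and 1.81 TPM without. It reached 1 TPM in food intake 1 to 5 but in no food intake 6 alone of the other group. MTHFD2 thus passed the filter through the group where it was higher. PHGDH, the first enzyme of serine synthesis, had 0.87 and SLC1A5, a transporter of glutamine and other neutral amino acids, 0.90. Within the 7 libraries with chicken-matched unigenes the list had 23 of 36 above 0 with a median of 0.19, beside 36.7% of all. Within the other 5 it had 32 of 36 with a median of 0.52, beside 62.7% of all.

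Of the 11 unigenes for delivery of charged tRNA to the ribosome 5 were above 0, beside 46% of all, with a median of -0.37. The cytosolic elongation factor 1 subunits EEF1G, EEF1D and EEF1B2, which recycle the tRNA carrier eEF1A, had log2 fold changes of -1.11 (unadjusted p = 0.017), -0.89 and -0.87. The most abundant of them, EEF1B2, was at 238, 568 and 1557 TPM with food intake and at 553, 1000.4 and 2220.0 TPM without. TSFM, the exchange factor of the mitochondrial carrier, was at 0.44, 3.01 and 7.47 TPM against 0.44, 1.70 and 2.25 TPM, a log2 fold change of 0.86 (unadjusted p = 0.045). All of these had an adjusted p above 0.05. Within the 7 libraries with chicken-matched unigenes 4 of 11 were above 0, beside 36.7% of all tested unigenes. Within the other 5 it was 9 of 11, beside 62.7% of all, so the shift between the sets was not particular to this list.

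The scaffold proteins of the complex, AIMP1 and AIMP2, had log2 fold changes of -0.13 and -0.45, and no fish unigene was matched to EEF1E1. Of 12 unigenes for proofreading and other routes of charging 8 were above 0 with a median of 0.06, among them QRSL1 (0.44), a subunit of the GatCAB amidotransferase, while another subunit, GATB, had -0.33. Of 22 unigenes for the making, processing and export of tRNA 9 were above 0 with a median of -0.01, beside 46% of all. The exporter of tRNA from the nucleus, XPOT, which is also in the amino acid response list, had 0.64 (unadjusted p = 0.117), and POLR3D, a subunit of the RNA polymerase that transcribes tRNA genes, had -0.45. With all 12 libraries, 0 unigenes of these 3 lists had an unadjusted p under 0.05. Without food intake 6, 3 of 22 for tRNA making (13.6%) were higher at that threshold, beside 8.36% of all tested unigenes. Within the 7 libraries with chicken-matched unigenes, 7 of 22 (tRNA making), 6 of 12 (proofreading) and 0 of 2 (scaffold) were above 0. Within the other 5 it was 17 of 22, 10 of 12 and 2 of 2. Of all tested unigenes 36.7% and 62.7% were above 0 in these sets.

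**Figure D5:**
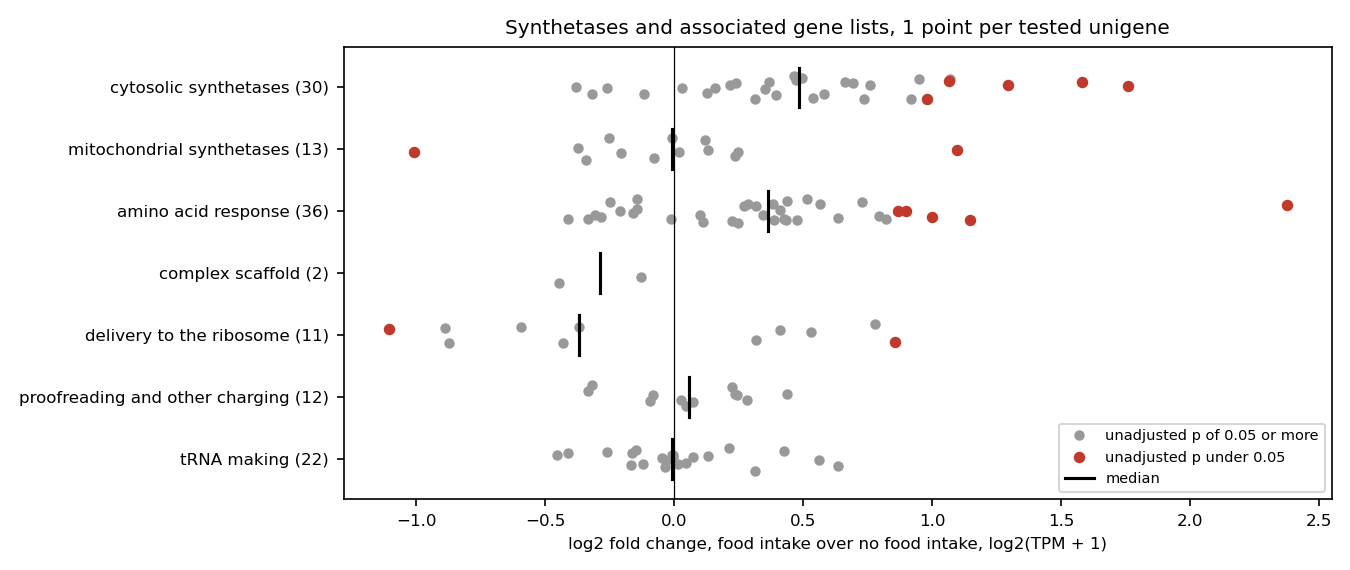
Log2 fold change between the groups (above 0, higher with food intake; scale of log2(TPM + 1)), 1 point per tested unigene, for the synthetases and 5 lists of genes that work with them, with red points at an unadjusted p under 0.05 and a black line at the median. The medians are 0.48 for cytosolic and -0.01 for mitochondrial synthetases, 0.36 for the amino acid response and -0.37 for delivery to the ribosome.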

How the data were processed

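The table deposited by the authors holds 63567 unigenes with a length, a protein annotation and a gene name for some, and 1 value per library. Those values were read as TPM from the column totals of the deposited table, since its header names no unit. The quantifier is not given in the sources used here. Trinity identifiers show an assembly without a genome, and cutadapt and FastQC are named by the submitters' processing notes. All 12 columns were matched to the labels by title. The depth per library is unknown, so precision comes from the spread between 6 fish per group, and nothing is known of how individual fish were housed or caught.

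Values were taken as log2(TPM + 1) and fitted with limma (3.58.1, in R 4.3.3), whose prior variance followed the mean level. A unigene was tested where 6 or more libraries reached 1 TPM. Feeding group was the single term, and p was adjusted by Benjamini and Hochberg over all unigenes tested (threshold 0.05). A fold change on this scale understates the change of low genes. The script was tested on simulated data. Members, lists and alternatives were chosen with earlier results of these data known. Described by name were the most abundant unigene of each amino acid and compartment, the 12 members with the smallest p, the 5 most abundant, and up to 4 genes per list with the smallest p. Remaining fragments and cell type markers are given by range, or by name where a count singles them out. List genes were matched by symbol, or by a pattern on the annotation where the symbol differs, leaving out unigenes whose best match is not a fish. Unigenes called rRNA-like had a mean of at least 1000 TPM and a correlation of log values of at least 0.95 with the most abundant unigene named ART2 (7 unigenes). Alternatives were other scalings, filters and pseudocounts, limma without the trend, sums per gene name, library set or replicate number as a term, each library set alone and each library left out. Python 3.11.15, pandas 2.3.3 and matplotlib 3.10.9 were used. No sequence was read. A member that met the naming rule is counted in the totals but not reported here by itself.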

Additional observations from a re-analysis of the deposited data

Results flagged for a closer look

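Dixon's rule was applied in each feeding group to the named synthetase unigenes, the cytosolic sum, the mitochondrial sum and their ratio. In 82 such groups of 6 libraries, 12 held a highest or lowest library whose gap to the next exceeded Dixon's 95% limit, which is 14.6%. The limit passes about 1 in 20 only for independent, normally distributed values. These were TPM without a log, from unigenes that share the same libraries, so the 14.6% cannot be set against that rate. All 12 flagged groups were for unigenes. Of the 12, 3 were in no food intake 4, which was the highest of its group for mitochondrial RARS2 at 13.39 TPM (next 4.27), for CARS at 15.69 TPM (next 9.51) and for the threonine unigene Tars at 20.25 TPM (next 11.37). No food intake 1 was the highest for DARS at 65.59 TPM (next 38.24) and the lowest for Kars at 6.76 TPM (next 11.09). Food intake 1 was the highest for GARS at 36.35 TPM (next 13.56) and for the 901-base hars unigene at 27.94 TPM (next 10.63). No food intake 6 was the highest for the 1943-base hars unigene at 13.0 TPM (next 5.23) and for farsa at 2.45 TPM (next 1.86). No food intake 5 was the highest for GARS at 9.37 TPM (next 5.37) and no food intake 2 for Pars2 at 3.16 TPM (next 0.86). Food intake 6 was the lowest for mitochondrial NARS2 at 0.35 TPM (next 2.17).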

How the results depend on the processing

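No synthetase unigene was called in any of 27 alternatives, where the smallest adjusted p was 0.185 (main analysis 0.774). The cytosolic median stayed above 0 in all 27 (0.23 to 0.85), as the share of members above 0 stayed over 50% (55.8% to 81.4%). The mitochondrial median ran from -0.37 to 0.20, and -0.37 was the single mitochondrial unigene left by a minimum of 5 TPM. Over all unigenes the count of calls was 0 in the main analysis, 2 after quantile normalization, 2 with median of ratios scaling, 1 after rescaling without rRNA-like unigenes, and 0 to 1 when 1 library was left out. Synthetases higher at an unadjusted p under 0.05 were 6 in the main analysis, beside 2.48% of all tested unigenes. They came to 10 after rescaling (beside 5.68%) and 2 within the 7 libraries with chicken-matched unigenes (beside 1.47%). With 1 library left out they came to 2 to 17, lowest without no food intake 1 and highest without food intake 6 (beside 8.36%). A minimum of 5 TPM gave 3 of 19. Added after the data were seen, rescaling without food intake 6 gave 15, and leaving out food intake 1 and 6 gave 11. For the minimum of 5 TPM, the removal of no food intake 1 and these added settings the share of all unigenes is not given. Those counts therefore cannot be set against it. The single lower one was lost (0) with a minimum of 5 TPM and within either library set. Of 37 named members 21 kept the sign of their fold change throughout and 16 had the other sign in at least 1 alternative.

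Libraries of the same replicate number did not deviate together (correlations of -0.102 to 0.108), so the numbers were not taken as pairs. With the replicate number as a block 0 synthetases were called, with 6 higher and 1 lower at an unadjusted p under 0.05, and a cytosolic median of 0.48. TPM keeps no depth, so the number of reads behind a member near 1 TPM is unknown. The log2 fold change of Pars2 ran from 0.64 to 2.56 over the alternatives.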
